A study of Homo sapiens with 6 samples.

Results

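The nuclear genes for subunits of oxidative phosphorylation were examined in the human colorectal carcinoma line HCT116, in samples labelled WT and METTL3-KO. METTL3 is the catalytic subunit of the methyltransferase that writes m6A on mRNA. The genes were chosen by symbol alone: NDUFA, NDUFB, NDUFC, NDUFS and NDUFV genes for complex I, UQCR genes and CYC1 for complex III, COX4 to COX8 genes for complex IV, and ATP5 genes for ATP synthase. Of 56638 gene symbols in the count tables, 82 fitted this rule after 91 pseudogene symbols were dropped, and 76 of them had at least 10 counts over the 6 samples. Of the 76, 36 were assigned to complex I, 9 to complex III, 14 to complex IV and 15 to ATP synthase. NDUFA4 was placed with complex IV, where its product works despite the name, and COX7A2L, a supercomplex factor, was kept with the COX genes. ATP5S and ATP5SL (now DMAC2L and DMAC2) carry the symbol but encode no subunit of the enzyme and were kept apart.

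The groups were WT HCT116 cells, with 3 samples, and METTL3-KO HCT116 cells, with 3 samples. All of them were grown in McCoy's 5a medium and the labels name no drug treatment. By the study's methods, the knockout line was made with a lentiviral CRISPR vector under puromycin selection and was monoclonal. If the 3 samples labelled METTL3-KO come from that line, they stand for 1 clone. What is particular to the clone and what follows from the loss of METTL3 then cannot be told apart. The deposited tables bear the names NC and SiM3 rather than WT and METTL3-KO, and the groups follow the labels and the study's methods. Whether the tables come from the knockout clone or from cells in which METTL3 was lowered in another way was not tested. Nothing in the sources says that the 3 samples of a group came from separate cultures, so p-values measure the spread between these samples, which may be technical.

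Oxidative phosphorylation is the set of enzyme complexes in the inner mitochondrial membrane that pass electrons from NADH and succinate to oxygen, pump protons on the way, and use the proton gradient to make ATP. Complexes I, III and IV and ATP synthase each combine subunits encoded in mitochondrial DNA with a larger number encoded in the nucleus, translated in the cytosol and imported, whereas complex II is wholly nuclear. Nuclear subunit genes are known for short transcripts and for promoters that hold sites of the transcription factors NRF1, the ETS family factor GABP and YY1. Levels are given as CPM, the count of a gene relative to the TMM-scaled library size and not to gene length, so they compare samples and not genes. In bulk samples, fewer cells of a type and less RNA per cell cannot be told apart.

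METTL3 mRNA was lower in the samples labelled METTL3-KO but still present, which shows which group held less METTL3 and not by what means. It was at 30.6, 30.2 and 29.2 CPM in WT replicates 1 to 3 and at 7.26, 7.69 and 6.89 CPM in METTL3-KO replicates 1 to 3, which is 4.12-fold lower (adjusted p = 1.59e-07, edgeR's quasi-likelihood test). Each sample held between 20936091 and 30142144 gene counts. The 8 epithelial and intestinal markers (EPCAM, CDH1, KRT8, KRT18, KRT19, VIL1, CDX1, LGALS4) were all detected, between 2.34 and 5655 CPM, and of 8 leukocyte, fibroblast and endothelial markers 6 stayed under 1 CPM in every sample, with a summed level of 9.99 to 12.3 CPM in WT and 12.6 to 18.1 CPM in METTL3-KO cells, nearly all of it from CD14 and COL1A1. Replicate 3 of each group stood apart from the other replicates with transcript length, and this touches nearly every gene described here. Per doubling of transcript length, log2 CPM relative to the mean of the sample's own group rose by 0.11 in WT replicate 3, against -0.06 and -0.05 in WT replicates 1 and 2, and changed by -0.07 in METTL3-KO replicate 3, against 0.04 and 0.03 in the other METTL3-KO samples. WT replicate 3 also had the largest share of read pairs outside annotated genes, 9.08%, against 6.03% to 7.10% in the other 5 samples.

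With all 6 samples, most subunit genes differed little between METTL3-KO and WT cells and single subunits changed, but this count depended on the third replicates: 34 of the 76 genes were lower without WT replicate 3 (17.3% of all genes tested) and 53 without replicate 3 of both groups (22.7%). In the fit of all samples, 8 of the 76 genes fell and 3 rose past an adjusted p of 0.05 (14.5% called, against 26.5% of all 22452 genes tested, which split into 13.2% lower and 13.3% higher). The genes that fell were ATP5SL, NDUFV2, NDUFC2, ATP5E, NDUFA11, NDUFA4, NDUFS7 and NDUFA1, and those that rose included NDUFB5 and UQCRC2. The median log2 fold change of the 76 genes was -0.10, against -0.02 over all genes tested, and 57 of the 76 values were negative and 19 positive. A total of 53 genes had a log2 fold change between -0.25 and 0.25. In 10 genes every METTL3-KO sample was below every WT sample and in 4 every one was above (20.7% and 20.2% of all genes tested, respectively).

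**Figure D1:**
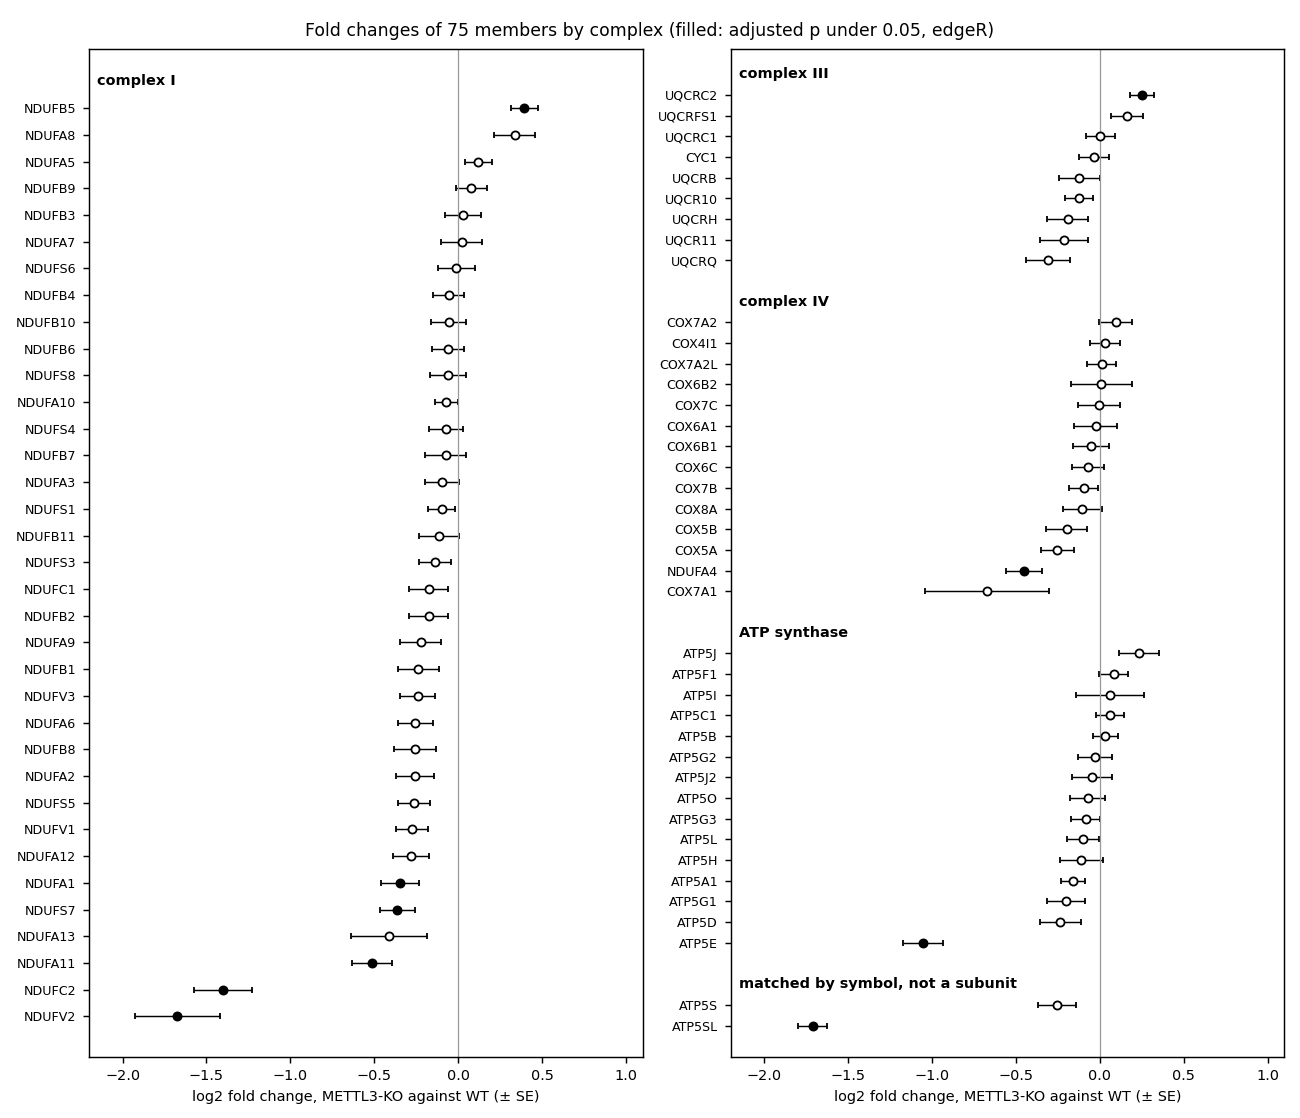
Log2 fold change, METTL3-KO against WT (x axis, with SE), of 75 of the 76 genes (y axis), grouped by complex, with filled points for an adjusted p under 0.05. Most points lie close to 0, while NDUFV2, NDUFC2, ATP5E and ATP5SL lie below -1.

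The medians of the 4 complexes were small and negative, except that the median of complex IV reached 0.01 after a correction for transcript length and GC content, 0.0042 after that correction with a replicate block, and 0.0004 without WT replicate 1. The median log2 fold change was -0.13 for complex I (5 of 36 genes lower, 2 higher), -0.12 for complex III (0 of 9 lower, 1 higher), -0.06 for complex IV (1 of 14 lower, 0 higher) and -0.07 for ATP synthase (1 of 15 lower, 0 higher). Of all genes tested, 13.2% were lower and 13.3% higher. The summed level of complex I genes was 2534, 2467 and 2083 CPM in WT replicates 1 to 3 and 2192, 2180.2 and 2454 CPM in METTL3-KO replicates 1 to 3. That of complex III was 1184, 1189 and 964 CPM in WT and 1060.0, 1066 and 1204 CPM in METTL3-KO. The sums overlapped between groups, with WT replicate 3 lowest and METTL3-KO replicate 3 among the highest. For complex IV they were 1579.6, 1588 and 1245 CPM in WT against 1342, 1352 and 1532 CPM in METTL3-KO, and for ATP synthase 2465, 2438 and 2048 CPM against 2075, 2095 and 2313 CPM. In both complexes the same order held, so that WT replicate 3 lay below all METTL3-KO samples and METTL3-KO replicate 3 lay above the other METTL3-KO samples.

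The difference between the third replicates and the others was shared by almost all of the subunit genes. In 69 of the 76 genes WT replicate 3 was below both other WT samples (39.3% of all genes tested), and in 70 of 76 METTL3-KO replicate 3 was above both other METTL3-KO samples (40.4% of all genes tested). WT replicate 3 differed from the mean of WT replicates 1 and 2 by a median log2 value of -0.31, and METTL3-KO replicate 3 from its companions by 0.19. The canonical transcripts of the 76 genes had a median length of 783.5 nt and 57.9% were shorter than 1000 nt, against 2762 nt and 15.1% for all genes tested with a known length. Over all genes tested, the median log2 difference of replicate 3 from its companions was 0 in WT and 0.02 in METTL3-KO. Replicate 3 thus shifted the group means of these short transcripts largely in a common direction, down in WT and up in METTL3-KO. Whether the deviation comes from the library or from the cells was not tested.

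**Figure D2:**
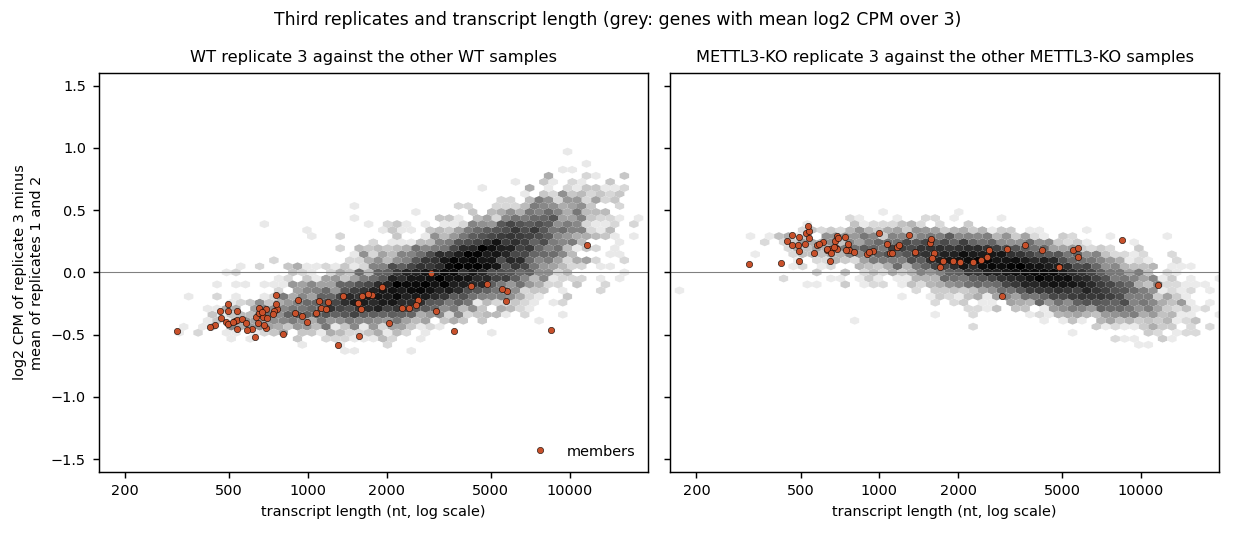
Log2 CPM of replicate 3 minus the mean of replicates 1 and 2 of the same group (y axis) against canonical transcript length (x axis, log scale), for WT on the left and METTL3-KO on the right; grey shows every gene whose mean log2 CPM exceeded 3, and orange points the subunit genes. The subunit genes lie mostly at short lengths, where the values are negative in WT (median -0.31) and positive in METTL3-KO (median 0.19).

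With the third replicates of both groups left out, a choice made after the data were seen, 53 of the 76 genes fell and 3 rose in METTL3-KO cells, beside 22.7% and 21.4% of all genes tested in that fit. The median log2 fold change was then -0.30 for complex I, -0.25 for complex III, -0.24 for complex IV and -0.22 for ATP synthase, with 69 of the 76 values negative. Leaving out WT replicate 3 alone gave 34 lower and 3 higher, beside 17.3% and 17.4% of all genes, and leaving out METTL3-KO replicate 3 alone gave 10 lower and 2 higher, beside 11.6% and 11.5%. When all 6 samples were kept and corrected for transcript length and GC content, 15 were lower and 8 higher, beside 17.3% and 17.5% of all genes, and the median of the 76 genes was -0.06. A common lower level of the subunit mRNAs in METTL3-KO cells thus depended on the third replicates, whereas single genes passed in all 14 alternative fits, among them ATP5SL, NDUFV2, NDUFC2, ATP5E, NDUFA11 and NDUFA4, which fell, and NDUFB5, which rose. NDUFA1, NDUFS7 and UQCRC2 did not pass in all of them.

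**Figure D3:**
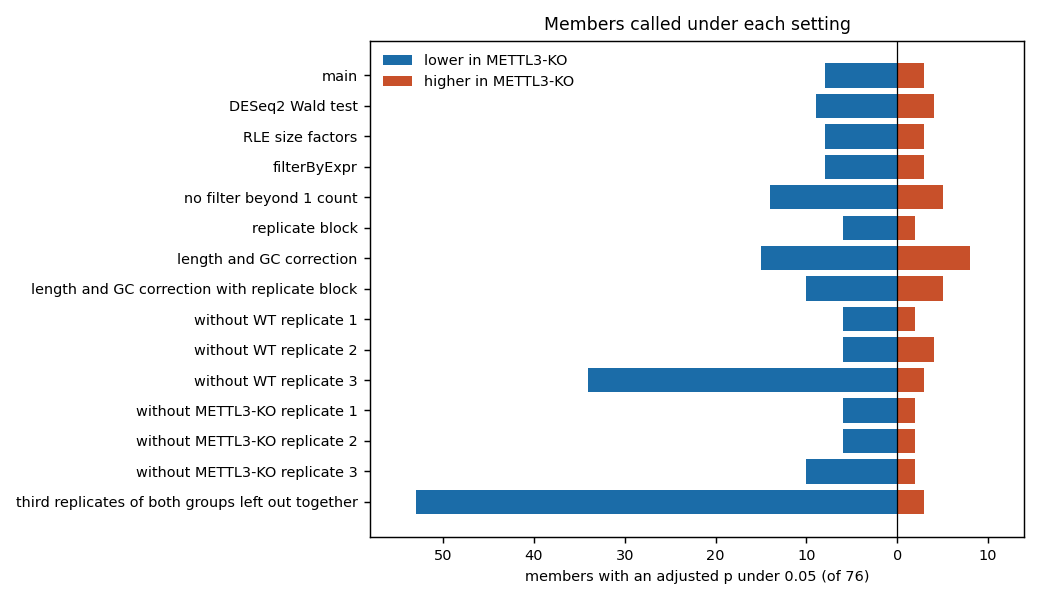
Number of the 76 genes with an adjusted p under 0.05 (x axis, lower in METTL3-KO to the left and higher to the right) under each way of fitting the data (y axis). The count of lower genes is 8 with all samples, 34 without WT replicate 3 and 53 without the third replicates of both groups, while the count of higher genes stays between 2 and 8.

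The promoters of genes that changed were read together with that of UQCR11, a complex III gene with several motif matches that did not pass the test. RefSeq promoters on GRCh38.p14, from 250 bases before to 50 bases after the start site, were found for 61 of the 76 genes, and the 120 bases before the start site are printed for 5 of them, 5′ to 3′ on the gene's strand, with matches to the motifs in capitals. They lie at chr19:41439538-41439657 (minus strand), chr20:59032336-59032455 (minus), chrX:119871712-119871831 (plus), chr16:21953241-21953360 (plus) and chr19:1605463-1605582 (minus).
ATP5SL: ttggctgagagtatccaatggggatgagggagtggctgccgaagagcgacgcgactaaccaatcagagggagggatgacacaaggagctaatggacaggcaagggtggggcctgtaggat
ATP5E: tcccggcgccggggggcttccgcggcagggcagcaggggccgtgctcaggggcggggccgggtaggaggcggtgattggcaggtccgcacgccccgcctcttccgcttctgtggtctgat
NDUFA1: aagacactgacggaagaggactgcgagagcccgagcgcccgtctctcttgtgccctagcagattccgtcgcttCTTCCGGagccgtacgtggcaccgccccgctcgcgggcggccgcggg
UQCRC2: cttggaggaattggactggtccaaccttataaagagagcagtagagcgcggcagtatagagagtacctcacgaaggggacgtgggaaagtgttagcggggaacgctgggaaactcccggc
UQCR11: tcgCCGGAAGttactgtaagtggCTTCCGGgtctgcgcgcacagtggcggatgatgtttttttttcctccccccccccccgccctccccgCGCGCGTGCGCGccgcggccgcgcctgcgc

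The motifs searched, on both strands, were the degenerate consensus of NRF1, CCGGAAG for ETS factors such as GABP, and AAGATGGCG for YY1. In the 300-base windows the ETS motif was found in 17 of 61 subunit genes (27.9%, against 14.2% of 15843 protein-coding promoters), the YY1 motif in 7 (11.5% against 2.69%) and the NRF1 consensus in 5 (8.20% against 2.10%), and 27 of 61 held at least 1 of the 3 (44.3% against 17.8%). By complex, ETS motifs were found in 5 of 31 promoters of complex I, 3 of 7 of complex III, 5 of 11 of complex IV and 4 of 11 of ATP synthase. NDUFA1 held an ETS match that begins 47 bases before the start, whereas the printed stretches of ATP5SL, ATP5E and UQCRC2 held no match. UQCR11 held 2 ETS matches and 1 match to the NRF1 consensus, and its log2 fold change was -0.21 (SE 0.144, edgeR adjusted p = 0.313). NDUFS7, which fell, held a YY1 match in its window and no match to the other motifs. The 5 genes with the NRF1 consensus had a median log2 fold change of -0.09, beside -0.10 for the 56 without it. The 17 genes with an ETS motif had a median log2 fold change of -0.10, beside -0.08 for the 44 without it, and the 7 genes with a YY1 motif one of -0.07, beside -0.10 for the 54 without it. A match is a stretch of letters and no evidence that a factor binds there.

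Within complex I, the NADH dehydrogenase at the entry of the chain, most of the subunits that carry the flavin and the iron-sulfur clusters overlapped between groups. NDUFV2, which carries an iron-sulfur cluster of the NADH-oxidizing module (chr18:9102628-9134343 on GRCh37, plus strand), fell, but on few counts. It was at 3.21, 3.14 and 3.70 CPM in WT and at 0.962, 0.637 and 1.53 CPM in METTL3-KO cells, from 71 to 88 counts per WT sample and 14 to 36 per METTL3-KO sample. The groups did not overlap, and WT was 3.19-fold higher (log2 fold change -1.67, SE 0.252, edgeR adjusted p = 0.000449). In the annotation used here 90.0% of the NDUFV2 transcript is shared with ENSG00000265257, a gene on the same strand, and the counting leaves out read pairs that touch more than 1 gene. Whether that gene was in the authors' annotation was not tested. Its processed copy NDUFV2P1 held 3254 counts over the 6 samples, more than the 317 of NDUFV2, while its log2 fold change was -0.04 (SE 0.114). The part of this overlap and of the copy in the NDUFV2 value was not tested.

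NDUFS7, the core subunit with the iron-sulfur cluster nearest to quinone, was at 24.9, 24.4 and 20.6 CPM in WT and at 17.2, 17.2 and 20.1 CPM in METTL3-KO cells. The groups were separate by a narrow margin between the third replicates (log2 fold change -0.36, SE 0.104, edgeR adjusted p = 0.0218), and the call was lost in 4 of 6 fits that left out 1 sample. Of its transcript, 51.3% is overlapped by genes on the opposite strand. NDUFV1, the flavin-bearing subunit, was at 226, 204 and 181 CPM in WT and at 161, 157 and 188 CPM in METTL3-KO cells. These overlapped through the third replicates and did not pass (log2 fold change -0.27, adjusted p = 0.0553). NDUFV1 did pass with DESeq2 (adjusted p = 0.0439) and with the length and GC correction (-0.26, edgeR adjusted p = 0.000740), but not with the replicate block (-0.27, adjusted p = 0.179). NDUFS1 was at 151, 148 and 175 CPM in WT and at 151, 151 and 141 CPM in METTL3-KO cells, with a log2 fold change of -0.10. NDUFS3 was at 80.3, 78.1 and 63.2 CPM in WT and at 64.6, 65.3 and 71.8 CPM in METTL3-KO cells, with one of -0.14, and NDUFS8 at 98.3, 97.0 and 77.5 CPM and at 80.7, 81.7 and 99.1 CPM, with one of -0.06. None of these 3 passed the test. In NDUFS3 and NDUFS8 WT replicate 3 was the lowest of all 6 samples, and NDUFS1, with a longer transcript, was highest there.

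The accessory subunits of complex I surround the core and are needed for its assembly and stability. Among these 29 subunits, 3 fell and 1 rose (median log2 fold change -0.12, 13.8% called against 26.5% of all genes tested). NDUFC2, a membrane-arm accessory subunit (chr11:77779343-77790908, minus strand), had the largest decrease among them. It was at 10.3, 12.9 and 8.91 CPM in WT and at 3.35, 3.96 and 4.93 CPM in METTL3-KO cells. The groups did not overlap, and the mean fell from 10.7 ± 2.03 to 4.08 ± 0.798 CPM (SD, n = 3 each; log2 fold change -1.40, SE 0.171, edgeR adjusted p = 0.000107). In the annotation 22.3% of its transcript is shared, with the read-through gene NDUFC2-KCTD14, which is listed at 0 counts in all 6 samples, and with THRSP on the opposite strand.

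NDUFA11, another membrane-arm subunit (chr19:5891287-5904017, minus strand), was at 8.38, 7.65 and 7.27 CPM in WT and at 5.90, 5.14 and 5.27 CPM in METTL3-KO cells. All METTL3-KO samples were below all WT samples (log2 fold change -0.51, SE 0.119, edgeR adjusted p = 0.00740), with 68.2% of the transcript shared with ENSG00000267740 on the same strand. NDUFA1, a small subunit of the membrane arm (chrX:119005795-119010625, plus strand) was at 61.0, 57.6 and 43.7 CPM in WT and at 40.7, 43.0 and 44.1 CPM in METTL3-KO cells. WT replicate 3 fell within the METTL3-KO range, and the decrease (log2 fold change -0.35, SE 0.112, adjusted p = 0.0390) passed in only 1 of 6 fits that left out 1 sample, the fit without WT replicate 3. NDUFB5 (chr3:179322478-179345435, plus strand) was the accessory subunit that rose, at 45.1, 43.9 and 41.2 CPM in WT and at 54.8, 54.4 and 61.9 CPM in METTL3-KO cells. Its groups did not overlap, and the increase was 1.31-fold (log2 fold change 0.39, SE 0.0814, adjusted p = 0.00355).

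The other accessory subunits did not pass the test. NDUFA8, which lies on the intermembrane-space side, had the largest positive value among them, at 34.4, 38.0 and 25.7 CPM in WT and at 39.5, 39.9 and 44.6 CPM in METTL3-KO cells (log2 fold change 0.34, adjusted p = 0.0665). Without the third replicates its log2 fold change was 0.13 (adjusted p = 0.0876), and its lowest value was that of WT replicate 3. NDUFA8 did pass with DESeq2 (0.35, adjusted p = 0.0399) and with the length and GC correction (0.39, edgeR adjusted p = 0.000916). With the replicate block added to that correction it passed as well (0.40, adjusted p = 0.00537), but not with the block alone (0.35, adjusted p = 0.146). NDUFS5, an intermembrane-space subunit of the same kind, was at 204, 194 and 160.4 CPM in WT and at 151, 147 and 167 CPM in METTL3-KO cells (log2 fold change -0.26, adjusted p = 0.0598), and without the third replicates at -0.42 (adjusted p = 2.62e-12). With all 6 samples NDUFS5 passed with the length and GC correction (-0.20, edgeR adjusted p = 0.00368). It also passed with the block added to that correction (-0.20, adjusted p = 0.0239), but not with the block alone (-0.26, adjusted p = 0.195). The remaining accessory subunits ranged from -0.41 (NDUFA13) to 0.12 (NDUFA5).

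**Figure D4:**
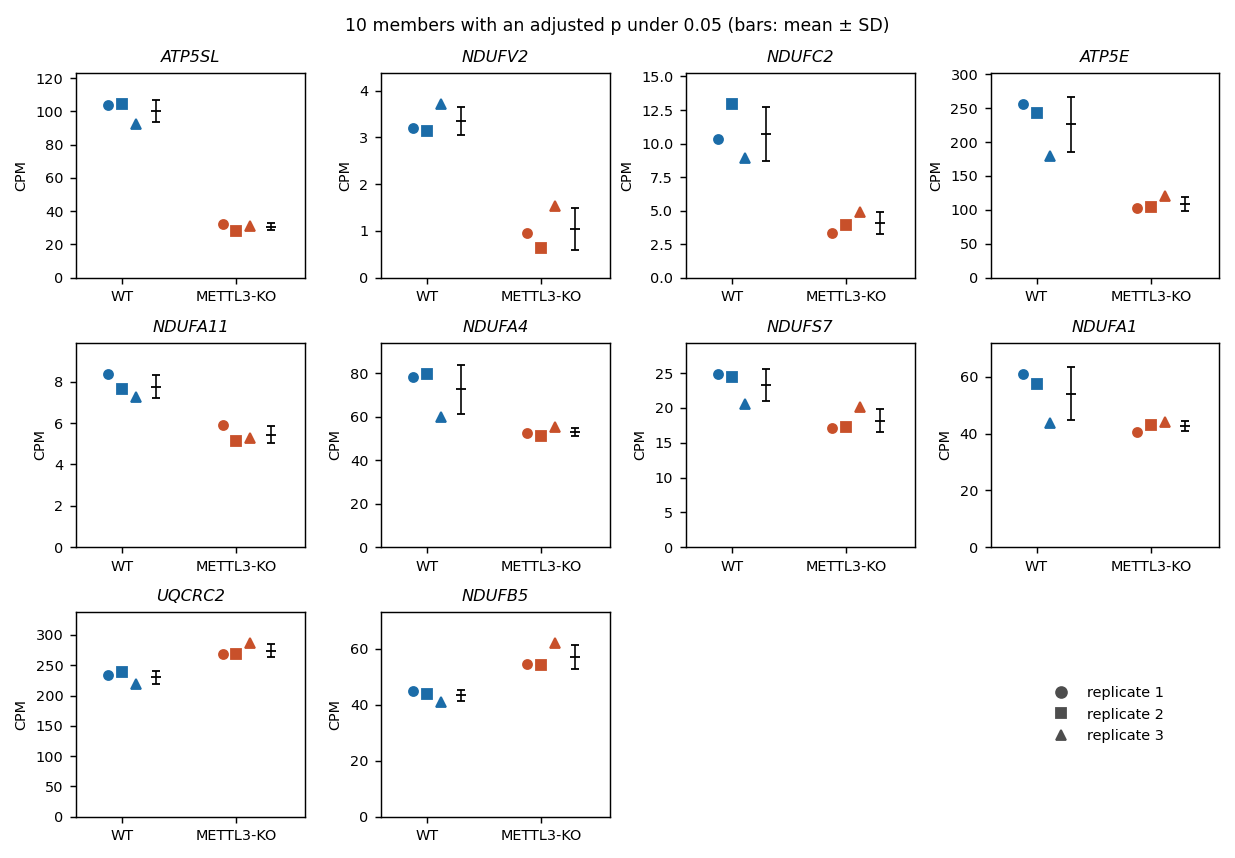
CPM (y axis, from 0) in the 3 WT and 3 METTL3-KO samples of 10 of the 11 genes with an adjusted p under 0.05, each replicate with its own symbol and bars for mean and SD. In ATP5SL, NDUFV2, NDUFC2 and ATP5E the METTL3-KO samples lie far below WT; in NDUFA1 the WT replicate 3 value (43.7 CPM) lies within the METTL3-KO range of 40.7 to 44.1 CPM.

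In complex III, which passes electrons from ubiquinol to cytochrome c, no gene fell and UQCRC2 rose in the uncorrected fit of all samples. UQCRC2, a core protein of the matrix side (chr16:21964609-21994981, plus strand), was at 234, 239 and 218 CPM in WT and at 268, 269 and 286 CPM in METTL3-KO cells. The groups were separate and the increase was 1.19-fold (log2 fold change 0.25, SE 0.0697, edgeR adjusted p = 0.0190), but it passed in 2 of 6 fits that left out 1 sample. The redox-active nuclear subunits did not pass. CYC1, cytochrome c1, was at 178, 172 and 149 CPM in WT and at 154, 154 and 179 CPM in METTL3-KO cells, with a log2 fold change of -0.04 (SE 0.0897) that turned to between 0.00 and 0.02 in 3 of the 6 fits without 1 sample. UQCRFS1, the Rieske iron-sulfur protein, was at 94.0, 94.6 and 76.1 CPM in WT and at 96.2, 92.8 and 108 CPM in METTL3-KO cells (log2 fold change 0.16, SE 0.0964). Its WT replicates 1 and 2 and METTL3-KO replicates 1 and 2 lay between 92.8 and 96.2 CPM. The small subunits UQCRQ, UQCR11 and UQCRH had values of -0.31, -0.21 and -0.19 and did not pass in that fit. UQCRQ passed with the length and GC correction (-0.27, edgeR adjusted p = 0.0283) but not with the block added (adjusted p = 0.0929). Without WT replicate 3, 5 of the 9 genes were lower and 1 higher, beside 17.3% and 17.4% of all genes tested. Without the third replicates of both groups, 7 were lower and 1 higher, beside 22.7% and 21.4%.

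In complex IV, cytochrome c oxidase, NDUFA4 was the gene that changed in the uncorrected fit of all samples. It (chr7:10971570-10979780, minus strand) was at 78.2, 79.7 and 59.7 CPM in WT and at 52.6, 51.4 and 55.2 CPM in METTL3-KO cells. All METTL3-KO samples were below all WT samples, with the mean at 72.5 ± 11.1 CPM in WT and 53.0 ± 1.96 CPM in METTL3-KO (SD, n = 3 each; log2 fold change -0.45, SE 0.105, edgeR adjusted p = 0.00711). The NDUFA4 decrease was 0.60 on the log2 scale without the third replicates. The 13 COX genes did not pass in the uncorrected fit of all samples, and they included the subunits that exist as tissue isoforms. With the length and GC correction COX5A passed as lower (-0.20, edgeR adjusted p = 0.0129) and COX7A2 as higher (0.16, adjusted p = 0.0225). Neither passed with the block added (adjusted p = 0.0545 and 0.0763). Without WT replicate 3, 4 of the 14 complex IV genes were lower and 0 higher. Without the third replicates of both groups, 11 were lower and 0 higher. Of all genes tested, 17.3% and 22.7% were lower in these fits.

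Of the isoform groups, HCT116 cells held the forms known as ubiquitous or liver-type, while most of the muscle, testis or lung forms were at or near 0 and the testis form COX6B2 was detected in every sample. COX4I2 and COX7B2 had 0 counts in all 6 samples, which allows up to 0.0204 CPM over the samples together by counting error alone, COX6A2 had 1 count and COX8C 2. COX4I1 was at 339, 349 and 281 CPM in WT and at 319, 313 and 358 CPM in METTL3-KO cells, and COX7B at 132, 129.9 and 107 CPM against 112, 113 and 120.3 CPM. COX8A was at 39.0, 31.8 and 29.5 CPM against 30.3, 27.9 and 35.3 CPM, and COX6B1 at 252, 247 and 189 CPM against 209.6, 209.9 and 244 CPM. These forms overlapped between groups, with log2 fold changes of 0.03, -0.10, -0.10 and -0.05, of which those of COX4I1, COX8A and COX6B1 changed sign in some alternative fits. The muscle form COX7A1 was at 0.692, 0.398 and 0.610 CPM in WT and at 0.365, 0.318 and 0.383 CPM in METTL3-KO cells, on 7 to 19 counts per sample, and did not pass (log2 fold change -0.67, SE 0.372). COX7A2 was at 95.8, 99.9 and 78.7 CPM against 90.7, 94.4 and 108 CPM, and COX7A2L at 132, 139 and 112 CPM against 126, 126 and 133 CPM. Neither passed in the uncorrected fit of all samples. COX6B2 was at 2.59, 3.45 and 2.95 CPM in WT and at 2.92, 2.50 and 3.57 CPM in METTL3-KO cells.

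COX6A1 was at 27.0, 28.8 and 21.3 CPM in WT and at 23.0, 23.6 and 29.4 CPM in METTL3-KO cells, with a log2 fold change of -0.03 that turned positive in 6 alternative fits. A copy of the gene, under the symbol COX6A1P2, held 19161 counts over the 6 samples against 3751 for COX6A1. COX6A1P2 was at 139, 133 and 109 CPM in WT and at 126, 121 and 151 CPM in METTL3-KO cells and did not pass either (log2 fold change 0.06, SE 0.106). How reads were divided between gene and copy was not tested, which leaves the value of COX6A1 uncertain.

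In ATP synthase, ATP5E, the epsilon subunit of the catalytic F1 head (chr20:57600530-57607400, minus strand), fell. No other subunit passed in the uncorrected fit of all samples. Without WT replicate 3, 6 of the 15 genes were lower and 0 higher, beside 17.3% and 17.4% of all genes tested. Without the third replicates of both groups, 9 were lower and 0 higher, beside 22.7% and 21.4%. ATP5E was at 255, 243 and 179 CPM in WT and at 103, 104 and 120.3 CPM in METTL3-KO cells. The groups did not overlap even with the third replicates closest to each other, and the level fell by 51.8% (log2 fold change -1.05, SE 0.121, edgeR adjusted p = 7.24e-05). In the annotation 32.7% of its transcript is overlapped by TUBB1 on the opposite strand. The alpha and beta subunits of the same head did not pass. ATP5A1 was at 383, 388 and 348 CPM in WT and at 324, 325 and 353 CPM in METTL3-KO cells (log2 fold change -0.16, SE 0.0729, adjusted p = 0.133). ATP5B was at 718, 719 and 634 CPM in WT and at 695, 687 and 737 CPM in METTL3-KO cells (log2 fold change 0.03, SE 0.0729, adjusted p = 0.781), a value that turned negative without WT replicate 3.

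The 3 genes for the identical c subunit of the membrane ring, ATP5G1, ATP5G2 and ATP5G3, all overlapped between groups. ATP5G1 was at 71.4, 66.6 and 52.0 CPM in WT and at 54.8, 50.6 and 60.0 CPM in METTL3-KO cells. ATP5G2 was at 197, 203 and 156 CPM in WT and at 167, 181 and 197 CPM in METTL3-KO cells. ATP5G3 was at 135, 129.5 and 110.3 CPM in WT and at 114, 114 and 125 CPM in METTL3-KO cells. Their log2 fold changes were -0.20, -0.03 and -0.09, and that of ATP5G2 changed sign in 5 alternative fits. The other ATP synthase genes ranged from -0.24 (ATP5D) to 0.23 (ATP5J). ATP5J, a stalk subunit, had 50.8 and 50.3 CPM in WT replicates 1 and 2 and 50.8 and 50.4 CPM in the METTL3-KO replicates of the same numbers. In these uncorrected values the groups differed through 38.5 CPM in WT replicate 3 and 63.0 CPM in METTL3-KO replicate 3. ATP5J did pass with the length and GC correction (log2 fold change 0.34, edgeR adjusted p = 0.00187) and with the replicate block added to it (0.34, adjusted p = 0.0170). ATP5J2LP had 0 counts in all 6 samples and ATP5L2 had 2.

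ATP5SL, now called DMAC2, is an assembly factor of the complex I membrane arm and no part of ATP synthase, and with all 6 samples it had the largest decrease of the 76 genes, while NDUFV2 was lower still in 3 of the 6 fits that left out 1 sample and without the third replicates of both groups. ATP5SL (chr19:41937223-41946622, minus strand) was at 104, 104 and 92.6 CPM in WT and at 32.4, 28.2 and 31.1 CPM in METTL3-KO cells. The groups were far apart, with a mean of 100.3 ± 6.67 CPM in WT and 30.6 ± 2.15 CPM in METTL3-KO (SD, n = 3 each), so that WT was 3.28-fold higher (log2 fold change -1.71, SE 0.0851, edgeR adjusted p = 2.76e-07). None of its transcript overlaps another annotated gene. ATP5S (now DMAC2L) was at 8.89, 8.54 and 8.67 CPM in WT and at 7.99, 7.19 and 6.63 CPM in METTL3-KO cells. These groups did not overlap, but the difference did not pass (log2 fold change -0.25, SE 0.111, adjusted p = 0.116).

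The decreases were also counted by whether a gene shares transcript sequence with other genes. Of the 76 genes, 22 had at least 15% of their canonical transcript overlapped by exons of other genes, and 5 of these fell (NDUFV2, NDUFC2, ATP5E, NDUFA11 and NDUFS7) and 0 rose. Of the 54 others, 3 fell (ATP5SL, NDUFA4 and NDUFA1) and 3 rose, beside 13.2% lower and 13.3% higher of all genes tested. Without the third replicates of both groups, 15 of the 22 and 38 of the 54 were lower, beside 22.7% of all genes. The median log2 fold change was -0.15 in the first set and -0.07 in the second. The part of the overlap in these values was not tested.

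The other genes of the pathway, taken from lists of related genes, were read beside the shares of all genes tested, 13.2% lower and 13.3% higher. Of the 28 genes of these lists that passed, 13 did so in all 6 fits that left out 1 sample and 11 with a replicate block. The 13 subunits encoded in mitochondrial DNA had a median log2 fold change of -0.02, with 0 lower and 2 higher. These were MT-CYB, the cytochrome b of complex III, at 4721, 4721 and 4272 CPM in WT and at 6256, 6249 and 6380.4 CPM in METTL3-KO cells (log2 fold change 0.46, SE 0.0645, edgeR adjusted p = 0.000272), and MT-ND2 (0.24, adjusted p = 0.0335). All METTL3-KO samples were above all WT samples for both, but MT-ND2 passed in 2 of the 6 fits without 1 sample and not with the block (edgeR adjusted p = 0.172). Without the third replicates of both groups, 6 of the 13 were lower and 3 higher, beside 22.7% and 21.4% of all genes tested in that fit. In complex II, the succinate dehydrogenase, 0 of 4 genes fell and 2 rose. SDHB, its iron-sulfur subunit, was at 94.6, 99.6 and 80.9 CPM in WT and at 126, 121 and 136 CPM in METTL3-KO cells, 1.39-fold higher (adjusted p = 0.00178), and SDHC had a log2 fold change of 0.26 (adjusted p = 0.0256), which passed in 2 of the 6 fits without 1 sample and not with the block (edgeR adjusted p = 0.134). Of 6 subunits and partners outside the symbol pattern, such as NDUFAB1 and CYCS, C14orf2, a small ATP synthase subunit, was the one that fell (-0.44, adjusted p = 0.00932) and 0 rose. C14orf2 passed in 5 of the 6 fits without 1 sample and not with the block (edgeR adjusted p = 0.0555).

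Of 16 complex I assembly factors 3 fell and 1 rose. ECSIT rose 1.64-fold, from 24.8, 23.3 and 21.4 CPM in WT to 38.2, 34.9 and 41.0 CPM in METTL3-KO cells (adjusted p = 0.000154, edgeR), and NUBPL, an iron-sulfur cluster carrier, and NDUFAF6 had log2 fold changes of -0.45 and -0.33. NDUFAF6 passed in 1 of the 6 fits without 1 sample and not with the block (edgeR adjusted p = 0.145). Of 6 complex III assembly factors 4 fell and 1 rose, with a median of -0.29. BCS1L, the chaperone that inserts the Rieske protein, fell from 36.3, 35.4 and 30.7 CPM in WT to 22.2, 22.2 and 26.1 CPM in METTL3-KO cells (log2 fold change -0.54, adjusted p = 0.00155), and UQCC2 and LYRM7 had log2 fold changes of -0.35 and -0.33. UQCC2 passed in 3 and LYRM7 in 2 of the 6 fits without 1 sample. With the block 1 of the 6 factors was lower, beside 7.66% of all genes tested in that fit. Without METTL3-KO replicate 3, 2 of 6 were lower, beside 11.6%. Of 23 complex IV assembly factors 4 fell and 1 rose. COX18, a membrane insertase for a mitochondrially encoded subunit, fell from 13.9, 11.7 and 16.9 CPM to 7.96, 7.14 and 7.74 CPM (log2 fold change -0.89, adjusted p = 0.000472), and COX19 and COA5 had log2 fold changes of -0.40 and -0.39. Of 2 ATP synthase assembly factors, ATPAF1 fell (-0.32, adjusted p = 0.00739), but it did not pass with the block (edgeR adjusted p = 0.0652).

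Among 9 regulators of mitochondrial biogenesis 0 fell and 4 rose, with a median log2 fold change of 0.25. PPARGC1B, a coactivator of respiratory genes, was at 10.7, 10.4 and 14.2 CPM in WT and at 19.8, 19.9 and 15.9 CPM in METTL3-KO cells (log2 fold change 0.67, SE 0.135, edgeR adjusted p = 0.00314). GABPB1, a subunit of GABP, rose by 0.49, ESRRA by 0.31 and YY1 by 0.25 on the log2 scale, whereas NRF1 and GABPA, with -0.13 and -0.16, did not pass. ESRRA passed in 3 and YY1 in 4 of the 6 fits without 1 sample. With the block neither passed (edgeR adjusted p = 0.137 and 0.117). That left 2 of the 9 regulators higher with the block, beside 8.06% of all genes tested. Of 10 genes for mitochondrial transcription and DNA maintenance 3 fell and 1 rose. Those that fell were SSBP1 (-0.43), which binds single-stranded mitochondrial DNA, POLG2 (-0.36), the accessory subunit of the mitochondrial DNA polymerase, and TFAM (-0.31), which packages mitochondrial DNA. POLG2 passed in 5 of the 6 fits without 1 sample. With the block POLG2 and TFAM did not pass (edgeR adjusted p = 0.0625 and 0.0688). That left 1 of the 10 genes lower and 0 higher, beside 7.66% and 8.06% of all genes tested in that fit. Without the third replicates of both groups, 38 genes of these lists together were lower and 19 higher, beside 22.7% and 21.4% of all genes tested in that fit. With all samples 16 were lower and 12 higher, beside 13.2% and 13.3%.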

How the data were processed

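RNA-seq of 3 WT and 3 METTL3-KO HCT116 samples was used, and no sample was left out or pooled. The authors prepared unstranded TruSeq libraries, sequenced paired ends, aligned them to hg19 with TopHat 2.0.11 and an Ensembl GRCh37 transcript index, and used htseq-count (union mode) to count read pairs, which leaves out pairs that touch more than 1 gene (7.95% to 8.77% of pairs per sample) or align to several places. The deposited tables hold raw counts by gene symbol, 20936091 to 30142144 per sample. The deposited tables name the samples NC and SiM3, and the groups follow the labels.

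Genes with fewer than 5 counts in both groups were removed, leaving 22452, and tested with edgeR 4.0.16 (quasi-likelihood, TMM, two-sided, R 4.3.3), with Benjamini-Hochberg adjustment over all of them and a threshold of 0.05. SE is the log2 fold change divided by the square root of F. Alternatives were DESeq2 1.42.0, RLE size factors, filterByExpr, no filter beyond 1 count, a replicate block, each sample left out, and a correction for transcript length and GC content (splines with 5 degrees of freedom, fitted where mean log2 CPM exceeded 3). The fit was tested on simulated data.

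Positions, lengths and overlaps came from GENCODE v44 lifted to GRCh37, not the authors' annotation version, and all 76 genes matched it; 35694 of 56638 symbols did. Coordinates of genes are on GRCh37 and of promoters on GRCh38.p14, where the outermost RefSeq start per gene was used. The strand setting of the counting is not given in the sources used here.

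The genes and lists were chosen with earlier results of these data known, so no p is adjusted over a list alone. Values in every sample are given for genes with an adjusted p under 0.05 and a log2 fold change of at least 0.5 in size, for core subunits of complexes I and III and ATP synthase, for isoform groups, and, chosen after their values were seen, for the other genes that passed and for NDUFA8, NDUFS5, ATP5J and COX6A1P2. A gene that this rule covers stays in the counts, but its own values are not reported here. In each related list up to 3 genes with the largest change past the threshold are named, and YY1, NRF1 and GABPA were added after their values were seen.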

Additional observations from a re-analysis of the deposited data

How the results depend on the processing

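Against 8 lower and 3 higher of the 76 genes, the counts became 14 and 5 with no filter beyond 1 count, 15 and 8 with the length and GC correction, and 10 and 5 with that correction and the replicate block. With single samples left out they ran from 6 to 34 lower, the highest without WT replicate 3, and from 2 to 4 higher; without the third replicates of both groups, a setting chosen after the data were seen, 53 were lower and 3 higher. In that last setting the medians of complex I and complex IV moved from -0.13 and -0.06 to -0.30 and -0.24; under the other alternatives the medians of the 4 complexes moved by less than the spread between replicates. DESeq2, RLE size factors and filterByExpr gave 8 or 9 lower and 3 or 4 higher. Over all genes tested, the share called ran from 7.66% to 22.7% lower and from 8.06% to 21.4% higher across the alternatives. For the related lists together (16 lower, 12 higher), the length and GC correction gave 20 higher, leaving out single samples gave 10 to 20 lower and 6 to 15 higher, and leaving out the third replicates of both groups gave 38 lower and 19 higher.

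The correlations of same-numbered samples' deviations from their group means were -0.587, -0.394 and -0.785. METTL3-KO replicate 3 had 0.719 and 0.635 with WT replicates 1 and 2, and WT replicate 3 had 0.658 and 0.507 with METTL3-KO replicates 1 and 2. These values were not corrected for the opposite length trends of the third replicates, so they cannot decide whether the replicate numbers pair the samples. With the replicate block 6 of the 76 genes were lower and 2 higher. Of the related genes 6 were lower and 5 higher. Of all genes tested, 7.66% were lower and 8.06% higher in that fit. NDUFA1, NDUFS7 and UQCRC2 did not pass with the block.

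Of the 76 genes, 28 changed sign in at least 1 alternative. Of these, 0 had passed, and their log2 fold changes were at most 0.23 in size. Among those whose values are given, the changes were as follows. With the length and GC correction, COX6A1 was at 0.0267, COX6B1 at 0.0020 and ATP5G2 at 0.0145, and with the block added at 0.0263, 0.0032 and 0.0147. Without the third replicates of both groups, NDUFS1 was at 0.0104, ATP5B at -0.0581, COX4I1 at -0.12, COX6B2 at -0.13, COX7A2 at -0.0830, ATP5J at -0.0005 and COX7A2L at -0.11. With single samples left out, the sign changed in some fits for CYC1 (-0.11 to 0.0154), ATP5B (-0.0225 to 0.0728), COX4I1 (-0.0579 to 0.10), COX6A1 (-0.14 to 0.0713), COX6B1 (-0.17 to 0.0194), COX6B2 (-0.13 to 0.13), COX7A2 (-0.0007 to 0.17), COX7A2L (-0.0750 to 0.0868), COX8A (-0.20 to 0.0245) and ATP5G2 (-0.14 to 0.0515). The cause of these changes was not tested.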

Other observations

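Counts on pseudogene copies of the subunit genes were looked at as well. Among symbols made of a subunit gene's symbol with a pseudogene suffix, 83 had 0 counts in all 6 samples and 7 had at least 100 counts in total. COX6A1P2 with 19161 counts and NDUFV2P1 with 3254 held more than their parent genes, COX6A1 with 3751 and NDUFV2 with 317. UQCRFS1P1 held 1584 counts against 13815 for UQCRFS1, and NDUFA5P11 held 510 against 8896 for NDUFA5. Among genes at a mean log2 CPM of 1 or more, 14 lay within 500 kb of ATP5SL, of which 3 also fell and 4 rose. Of the 6 such genes near ATP5E, 3 fell and 1 rose, and of the 11 near NDUFC2, 2 fell and 2 rose. Near NDUFA11, which fell, 1 of 17 fell and 4 rose. Near UQCRC2, which rose, 4 of 9 fell and 1 rose. Of all genes tested, which include genes below this level, 13.2% were lower and 13.3% higher.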
